A study of Mus musculus with 8 samples.

Results

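The genes described here are 10 known transcriptional targets of the hypoxia-inducible factors (HIFs), chosen by name: Ddit4, Bnip3, Egln1, Egln3, Vegfa, Ndrg1, Kdm3a, Fam162a, P4ha1 and Bhlhe40. They are 10 of 22963 genes with RefSeq transcripts in the deposited data, and all 10 were among the 10278 genes that were tested after genes with low or doubtful values had been set aside. RNA had been sequenced from Bruce 4 cells, a male mouse embryonic stem cell line of the C57BL/6J strain with no genetic change named in the labels. The cells had been kept for 2 weeks on dishes coated with gelatin or with LN511 (laminin-511, a protein of the basement membrane), and on each coating in the medium called Std, whose composition the labels do not give, or in 2i, a medium known for inhibitors of MEK and of GSK3. The 4 groups were therefore gelatin Std, gelatin 2i, LN511 Std and LN511 2i, with 2 biological replicates each according to the design text, 8 libraries of 1 cell line in all. The labels do not say whether the replicates came from separate cultures or passages, so the tests measure the spread between these libraries.

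HIFs are heterodimers of an oxygen-regulated alpha subunit (Hif1a or Epas1) and the constant partner Arnt. In the presence of oxygen, prolyl hydroxylases of the Egln family modify the alpha subunit, the von Hippel-Lindau protein Vhl recognises it, and it is degraded; when oxygen is scarce the dimer accumulates and binds a short core sequence in or near its target genes. The targets include enzymes of glycolysis, the hydroxylases themselves as feedback, mitochondrial proteins, angiogenic factors and chromatin enzymes, and several of them also respond to other signals, so their RNA is not a measure of HIF alone. The labels name no oxygen level, and HIF protein was not measured.

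The binding core of HIF is ACGTG or GCGTG, and the sequences just upstream of 4 members are shown because their RNA separated the 2 media most clearly on gelatin. They come from RefSeq (GRCm38.p6, the assembly that mm10 names), run 5′ to 3′ on the strand of the gene, and end where annotated exons begin. All 4 genes lie on the minus strand. Capitals mark a match to either core on either strand (CACGT and CACGC are the cores on the other strand). The stretch of Kdm3a has none, since the only match counted for Kdm3a lies past its end, inside the annotated gene. The stretches are chr10:59951835-59952020 for Ddit4, chr7:138909520-138909756 for Bnip3, chr12:54203875-54204124 for Egln3 and chr6:71632991-71633167 for Kdm3a.
Ddit4: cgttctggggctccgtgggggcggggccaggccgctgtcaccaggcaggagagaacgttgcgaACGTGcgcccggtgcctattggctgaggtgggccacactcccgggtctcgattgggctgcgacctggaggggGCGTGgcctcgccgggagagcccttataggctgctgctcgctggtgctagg
Bnip3: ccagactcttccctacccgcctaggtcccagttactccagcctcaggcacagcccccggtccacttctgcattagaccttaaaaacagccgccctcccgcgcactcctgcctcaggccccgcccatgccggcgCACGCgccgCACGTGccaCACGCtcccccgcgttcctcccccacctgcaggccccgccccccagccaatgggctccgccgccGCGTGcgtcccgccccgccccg
Egln3: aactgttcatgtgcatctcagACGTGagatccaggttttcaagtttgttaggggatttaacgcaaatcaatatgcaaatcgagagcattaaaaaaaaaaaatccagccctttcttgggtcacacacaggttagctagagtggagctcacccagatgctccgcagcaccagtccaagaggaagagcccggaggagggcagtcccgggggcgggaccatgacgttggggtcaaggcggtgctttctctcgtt
Kdm3a: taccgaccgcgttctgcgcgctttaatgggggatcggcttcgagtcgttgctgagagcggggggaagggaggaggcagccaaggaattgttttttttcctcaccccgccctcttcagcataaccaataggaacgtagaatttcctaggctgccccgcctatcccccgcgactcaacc

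Of the 10 members, 8 were in the promoter table, all but Ndrg1 and Bhlhe40. In the 250 bases before the most upstream start listed, Fam162a had 6 matches to ACGTG or GCGTG, Bnip3 5 and P4ha1 3. Ddit4 and Egln1 had 2 each, and Egln3 and Kdm3a had 1 each. Vegfa had none, while 1 other start listed for Vegfa had a match in its window. For Kdm3a and P4ha1 the start listed lies inside the span of the gene. The match of Kdm3a and the ACGTG match of P4ha1 are within that span, not upstream of it. Among 32851 RefSeq promoters of the same length 38.6% held at least 1 match, 16.7% at least 2 and 6.58% at least 3. ACGTG alone was in 16.6% of them and GCGTG alone in 28.2%. In Bnip3 a pair of the matches lies in 1 palindrome, CACGTG, the E-box that transcription factors with a basic helix-loop-helix domain bind, which 6.02% of all promoters held; Bhlhe40 is one of those factors. These windows are rich in CG, with a GC content of 86% in Egln1, 72.4% in Bnip3 and 50.8% in Egln3, and both cores hold a CG. A match is a description of letters and says nothing about binding in these cells, and no match says only that the letters are not in that window.

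**Figure D1:**
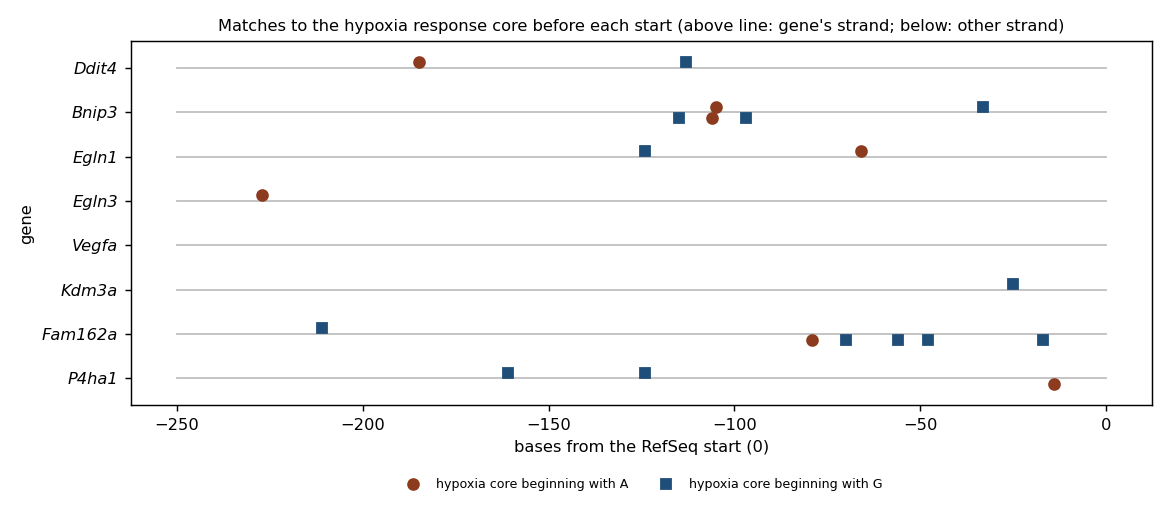
Matches to ACGTG (circles) and to GCGTG (squares) in the 250 bases before the most upstream start listed for each of 8 members. There is 1 line for each gene, with symbols above it for the strand of the gene and below it for the other strand. The horizontal axis is the distance from that start in bases. Fam162a has 6 matches, and the start of Vegfa shown has none.

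Expression is in FPKM, the fragments of a transcript scaled by its length and by the depth of the library. Values were summed over the RefSeq transcripts of a gene. Levels can be compared between genes only roughly, since some zeros can be failed estimates and some listed transcripts have no row. A difference is on the log2(FPKM + 1) scale, and a gene is said to rise or fall when its adjusted p was under 0.05 (limma across all 10278 genes, Benjamini-Hochberg, two-sided). An exact permutation of 2 libraries against 2 cannot give a p below 0.333. The tests therefore rest on each gene's own spread within the 4 groups, combined by limma with the spread of genes at similar levels. Replicates correlated at 0.959 to 0.964 across genes, and groups at 0.907 to 0.955. Library depths, read from the steps between low values, lay within 1.19-fold of one another, and 1 step was worth a median of 0.141 FPKM (quartiles 0.094 and 0.22), so members at 2 or 3 FPKM are coarsely measured. Of 10 embryonic stem cell markers 9 had rows, and all 9 were at 1 FPKM or more in both libraries of every group. Pou5f1 was at 949.02 to 1244.89 FPKM, but other markers of the list moved with the medium. Nanog went from 56.72 and 53.06 FPKM in Std to 446.28 and 454.96 in 2i on gelatin. On LN511 it went from 48.44 and 43.21 to 550.21 and 614.28. Sox2, Zfp42, Sall4 and Esrrb were also higher in 2i on both coatings, and Utf1, Lin28a and Tdgf1 were lower. The part of this shift in the differences of the members was not tested. In these bulk samples fewer cells that use a gene and less RNA per cell cannot be told apart.

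Most of the members that differed were lower in 2i than in Std on either coating, and 1 was higher. On gelatin Ddit4, Bnip3, Egln3 and Fam162a fell and Kdm3a rose, 4 lower and 1 higher of 10. Across all genes tested 7.2% fell and 8.2% rose in that comparison, 1583 genes, a number that fell to between 648 and 811 when any 1 of the 4 gelatin libraries was left out. On LN511 the same 4 genes fell together with Bhlhe40, and Kdm3a rose, 5 lower and 1 higher of 10, where 9.95% of all genes fell and 8.58% rose, 1905 genes, or 861 to 1318 without any 1 of the 4 LN511 libraries. The median difference of the 10 members was -0.50 on gelatin and -1.10 on LN511, while the median over all genes was 0.00 and -0.04. Egln1, Vegfa, Ndrg1 and P4ha1 passed the test on neither coating. Markers of other cell types that such cultures can hold moved with the medium too. The summed level of the 10 fibroblast markers was 96.5 to 100.2 FPKM in Std and 235.8 to 237.7 in 2i on gelatin, and 54.2 to 65.1 in Std and 126.3 to 157.9 in 2i on LN511. Nearly all of it was Fn1. Thy1 went the other way, from 4.45 and 3.54 FPKM to 0.49 and 0.23 on gelatin and from 2.19 and 2.04 to 0.51 and 0.26 on LN511, and Postn and Lum were at 0 in every library. The summed level of the 10 primitive endoderm markers was lower in 2i. It was 37.8 to 44.4 FPKM in Std and 16.4 to 16.5 in 2i on gelatin, and 39.9 to 62.7 and 22.9 to 25.4 on LN511. Most of that sum was Lamb1, Col4a1 and Lama1, and Gata4, Gata6 and Sox17 stayed under 1 FPKM in every library. Lama1 was higher in 2i, from 1.58 and 1.75 FPKM to 4.4 and 2.2 on gelatin and from 4.33 and 4.73 to 6.94 and 7.08 on LN511. The summed level of the 7 mesendoderm markers was higher in 2i. On gelatin it was 0.7 to 0.9 FPKM in Std and 9.6 to 11.6 in 2i, and on LN511 0.7 to 1.9 and 5.2 to 6.0. Mesp1 and Lhx1 were at 0 in every library. The 11 trophoblast markers summed to 194.2 to 194.9 FPKM in Std and 37.7 to 45.5 in 2i on LN511. On gelatin they summed to 32.0 to 37.4 in Std and 47.4 to 48.2 in 2i. The part of all these markers in the differences by medium was not tested.

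**Figure D2:**
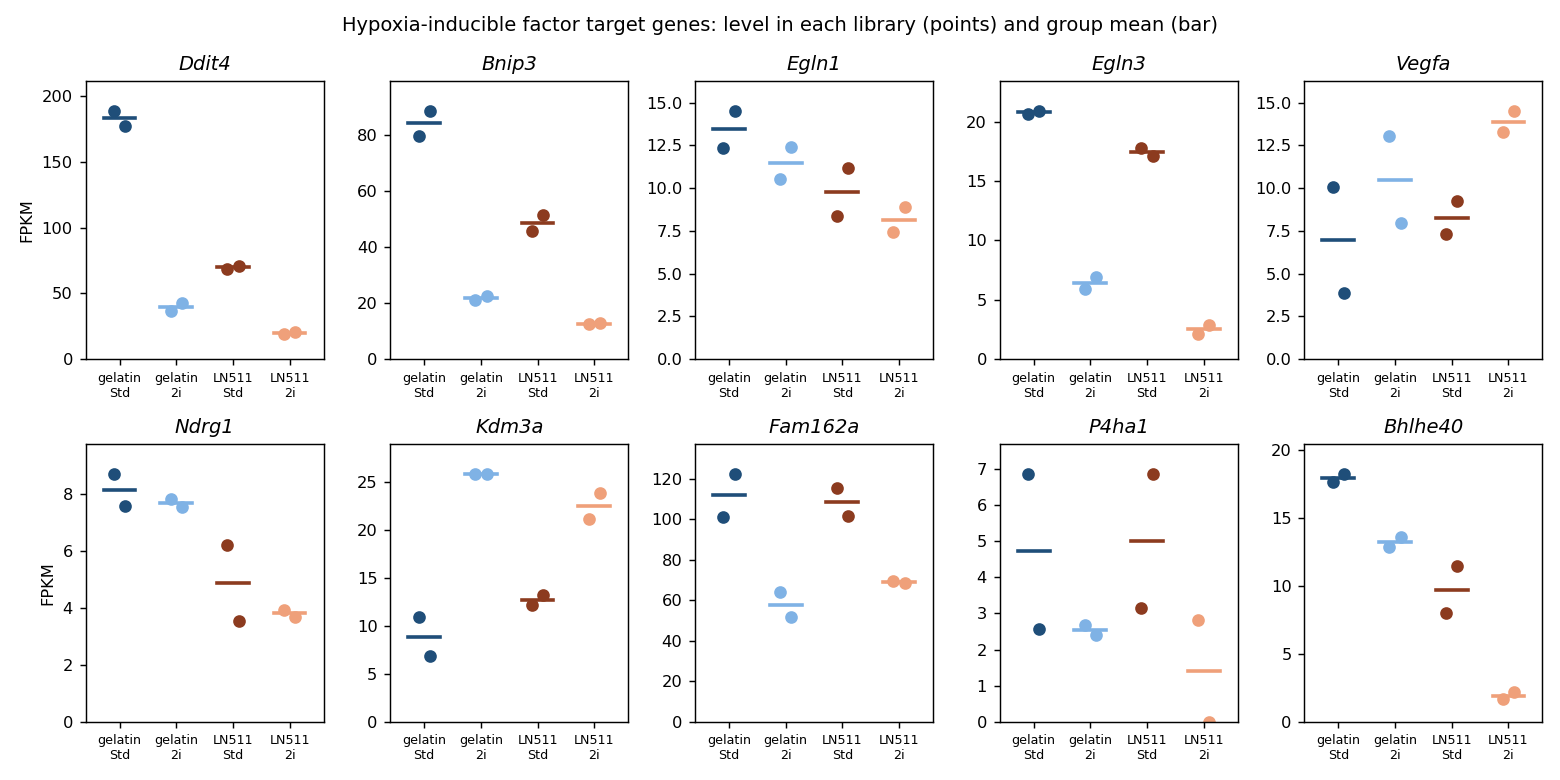
FPKM of each of the 10 members in every library, with 1 panel for each gene, 4 groups on the horizontal axis, points for the libraries and bars for the group means. Ddit4, Bnip3 and Egln3 are highest in gelatin Std and lowest in LN511 2i, while Kdm3a is highest in the 2i groups.

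Ddit4 (also called REDD1) encodes an inhibitor of the growth kinase complex mTORC1 and is induced by hypoxia and by several other stresses. It is a single short gene at chr10:59949675-59951770 with 1 RefSeq transcript. Its level was 188.88 and 177.61 FPKM in Std and 36.25 and 42.41 in 2i on gelatin, and 68.53 and 71.0 in Std and 18.8 and 20.63 in 2i on LN511. No groups overlapped, and the order from high to low was gelatin Std, LN511 Std, gelatin 2i, LN511 2i, a span of 9.29-fold between the highest and the lowest mean. In 2i it was 4.66-fold lower on gelatin (log2 -2.20, SE 0.11, limma adjusted p = 0.000129) and 3.54-fold lower on LN511 (log2 -1.77, SE 0.11, limma adjusted p = 0.000261). On LN511 it was 2.63-fold lower than on gelatin in Std (log2 -1.38, SE 0.11, limma adjusted p = 0.0051). That call by coating was lost without LN511 Std replicate 1 (adjusted p = 0.0703), without LN511 Std replicate 2 (0.0513) and with only the libraries of that comparison (0.0557), with a difference of -1.35 to -1.41 in each.

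Bnip3 encodes a protein of the outer mitochondrial membrane that marks mitochondria for removal by autophagy. It lies at chr7:138890836-138909506, where its span overlaps that of a pseudogene, Gm18258. Its level was 79.73 and 88.74 FPKM in Std and 20.93 and 22.69 in 2i on gelatin, and 45.76 and 51.42 in Std and 12.38 and 12.99 in 2i on LN511. The 4 groups stood apart in the same order as those of Ddit4, over a 6.64-fold span. It was 3.86-fold lower in 2i on gelatin (log2 -1.90, SE 0.12, limma adjusted p = 0.000291) and 3.83-fold lower in 2i on LN511 (log2 -1.86, SE 0.12, limma adjusted p = 0.000286), and the difference between these effects was 0.05 with a 95% interval of -0.36 to 0.45. On LN511 it was 1.73-fold lower than on gelatin in Std (log2 -0.78, SE 0.12, limma adjusted p = 0.0325). This call was lost without any 1 of the gelatin Std, LN511 Std or gelatin 2i libraries (adjusted p from 0.07 to 0.148).

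The second mitochondrial member, Fam162a (also called HGTD-P), encodes a small protein linked to cell death under hypoxia. It lies at chr16:36043844-36071561. It was listed at 100.98 and 122.57 FPKM in Std and 64.04 and 51.63 in 2i on gelatin, and 115.36 and 101.61 in Std and 69.41 and 68.39 in 2i on LN511. The Std groups overlapped each other and stood above both 2i groups. In 2i the gene was 1.93-fold lower on gelatin (log2 -0.94, SE 0.14, limma adjusted p = 0.00776) and 1.57-fold lower on LN511 (log2 -0.64, SE 0.14, limma adjusted p = 0.0251). The second call was lost without any 1 of the 4 LN511 libraries (adjusted p = 0.126 without replicate 1 and 0.0672 without replicate 2 of Std, 0.0783 without replicate 1 and 0.09 without replicate 2 of 2i) and without the trend (0.0625). By coating it differed by -0.04 in Std (95% interval -0.38 to 0.30). In 2i it was higher on LN511 by 0.26 (95% interval -0.08 to 0.60) with no overlap, and this did not pass (limma adjusted p = 0.539).

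Egln3 and Egln1 encode the prolyl hydroxylases PHD3 and PHD2, which mark HIF alpha subunits for degradation and are HIF targets themselves. Egln3, at chr12:54178981-54203874, had 20.65 and 20.9 FPKM in Std and 5.91 and 6.88 in 2i on gelatin, and 17.76 and 17.08 in Std and 2.13 and 2.89 in 2i on LN511. The groups did not overlap and followed the order of Ddit4 and Bnip3, with an 8.27-fold span. It was 3.25-fold lower in 2i on gelatin (log2 -1.56, SE 0.19, limma adjusted p = 0.00379) and 6.93-fold lower on LN511 (log2 -2.40, SE 0.19, limma adjusted p = 0.000582). The difference between these effects, -0.84 (95% interval -1.49 to -0.19), did not pass the adjusted test (limma adjusted p = 0.304).

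Egln1, at chr8:124908587-124949254, overlaps the noncoding gene Gm46060 and spanned a narrower range than Egln3. It had 12.37 and 14.53 FPKM in Std and 10.56 and 12.42 in 2i on gelatin, and 8.39 and 11.19 in Std and 7.41 and 8.9 in 2i on LN511, a span of 1.65-fold in which every neighbouring pair of groups overlapped. The difference by medium was -0.21 on gelatin (95% interval -0.72 to 0.30) and -0.23 on LN511 (-0.74 to 0.28), and neither passed. The lower ends of the intervals lie beyond a 1.5-fold fall, so these libraries leave room for one of that size. By coating it was 1.37-fold lower on LN511 in Std and 1.41-fold lower in 2i with no overlap in either, and neither passed (limma adjusted p = 0.394 and 0.468).

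Kdm3a encodes a demethylase that removes methyl groups from lysine 9 of histone H3, and it was the only member called higher in 2i. It lies at chr6:71588970-71632990. Its level was 10.89 and 6.83 FPKM in Std and 25.8 and 25.85 in 2i on gelatin, and 12.19 and 13.17 in Std and 21.12 and 23.77 in 2i on LN511. All 4 groups stood apart, in the order gelatin 2i, LN511 2i, LN511 Std, gelatin Std, with the 2i libraries above all Std libraries. It was 2.91-fold higher in 2i on gelatin (log2 1.48, SE 0.22, limma adjusted p = 0.00676). On LN511 it was 1.77-fold higher (log2 0.78, SE 0.22), just under the threshold (limma adjusted p = 0.0499), and the call was lost without any 1 of the gelatin 2i, LN511 Std or LN511 2i libraries (adjusted p from 0.0833 to 0.183). It was also lost with a pseudocount of 0.1 (0.0615), no filter (0.0667), doubtful zeros kept (0.0648), quantile normalization (0.0528), no trend (0.0673), only the libraries of the comparison (0.0545) and the highest transcript alone (0.0528). Of the 2 RefSeq transcripts with rows, 1 carried all of the level except in LN511 Std replicate 1, where it had 7.65 FPKM and the other had 4.54.

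Its paralog Kdm3b, an enzyme of the same family, rose with it. On gelatin Kdm3b went from 16.3 ± 1.09 FPKM (SD, n = 2) in Std to 38.87 ± 3.76 in 2i, 2.39-fold higher (limma adjusted p = 0.00561), and on LN511 from 16.86 ± 2.82 to 35.41 ± 4.21, 2.1-fold higher (limma adjusted p = 0.00836). The third gene of the family, Jmjd1c, was listed at 0 in 6 of 8 libraries and at 13.82 and 16.08 FPKM in the others, which may be failed estimates, and it was not tested.

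Bhlhe40 (also called DEC1 or Stra13) encodes a transcriptional repressor that binds E-boxes and takes part in the circadian clock. It lies at chr6:108660629-108666925 and overlaps the noncoding gene 0610040F04Rik. The strand of the reads is not given, so reads of the pair cannot be told apart where they overlap. It had 17.66 and 18.25 FPKM in Std and 12.82 and 13.59 in 2i on gelatin, and 7.96 and 11.48 in Std and 1.67 and 2.18 in 2i on LN511. Its groups did not overlap, but unlike those of Ddit4 both gelatin groups stood above both LN511 groups, over a 9.3-fold span. In 2i it was 5.04-fold lower on LN511 (log2 -1.86, SE 0.22, limma adjusted p = 0.00284) and 1.36-fold lower on gelatin (log2 -0.42, SE 0.22, limma adjusted p = 0.272). The difference between the effects of the medium was -1.44 (95% interval -2.20 to -0.68), the largest of the 10 members in size, and it did not pass over all genes (unadjusted p = 0.00295, limma adjusted p = 0.173). By coating it was 1.85-fold lower on LN511 in Std (limma adjusted p = 0.137) and 6.84-fold lower in 2i (limma adjusted p = 0.0542).

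Vegfa encodes the secreted growth factor that drives the growth of blood vessels. It lies at chr17:46016993-46032377, and 9 of its 10 listed RefSeq transcripts had rows. The sums were 10.06 and 3.88 FPKM in Std and 13.06 and 7.93 in 2i on gelatin, and 7.3 and 9.23 in Std and 13.26 and 14.52 in 2i on LN511. The replicates on gelatin differed by more than the groups did, and on LN511 both 2i libraries stood above both Std libraries. Vegfa passed no test: the difference by medium was 0.61 (SE 0.41, limma adjusted p = 0.382) on gelatin and 0.69 (SE 0.41, limma adjusted p = 0.301) on LN511. The share of each transcript changed between replicates: in gelatin Std replicate 1 the level was split over 3 transcripts at 3.03, 3.96 and 3.06 FPKM, and in replicate 2 all 3.88 FPKM was on another one. With the single highest transcript in place of the sum, Vegfa was called higher in 2i on gelatin (log2 2.31, limma adjusted p = 0.00455) and higher on LN511 in Std (log2 1.82, limma adjusted p = 0.0368), calls that the sums do not make. Of 5 VEGF receptor genes, Flt1, Kdr and Nrp1 were listed under 1 FPKM in every library and Flt4 reached 1.02 FPKM in 1; a listed 0 among them can be a failed estimate. The only one tested was the coreceptor Nrp2, at 2.05 ± 0.05 FPKM (SD, n = 2) in Std and 2.18 ± 0.46 in 2i on gelatin, and 7.99 ± 0.75 in Std and 1.41 ± 0.49 in 2i on LN511. It fell in 2i on LN511 (log2 -1.91, SE 0.27, limma adjusted p = 0.00551), a call lost with the highest transcript alone (0.053).

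Ndrg1 encodes a cytoplasmic protein of stress responses and differentiation, and P4ha1 the catalytic subunit of the prolyl hydroxylase that modifies collagen. Ndrg1, at chr15:66929318-66969641, had 8.73 and 7.6 FPKM in Std and 7.84 and 7.56 in 2i on gelatin, and 6.21 and 3.53 in Std and 3.92 and 3.7 in 2i on LN511. All gelatin libraries were above all LN511 libraries, and within a coating the media overlapped. It was 1.68-fold lower on LN511 in Std (log2 -0.68, SE 0.27, limma adjusted p = 0.294) and 2.02-fold lower in 2i (log2 -0.86, SE 0.27, limma adjusted p = 0.304), and neither passed.

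P4ha1, at chr10:59323197-59373304, was the lowest member, with 6.86 and 2.58 FPKM in Std and 2.67 and 2.41 in 2i on gelatin, and 3.16 and 6.88 in Std and 2.81 and 0 in 2i on LN511. The value of 0 stands beside a replicate at 2.81 and can be a failed estimate. Only 1 of its 3 listed RefSeq transcripts had a row. With an SE of 0.70, its differences by medium (-0.59 on gelatin, -1.55 on LN511) had 95% intervals that held 0.

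By coating, the members leaned towards lower levels on LN511, and few passed. In Std, Ddit4 and Bnip3 fell on LN511, 2 lower and none higher of 10, where 0.564% of all genes fell and 1.54% rose, 216 genes, or 9 to 41 without any 1 of the 4 Std libraries and 74 or 75 without a gelatin 2i library; the median difference was -0.34 for the members and 0.05 for all genes. Markers of trophoblast moved with the coating in Std. Their summed level was 194.2 to 194.9 FPKM in LN511 Std, 32.0 to 37.4 in gelatin Std, 47.4 to 48.2 in gelatin 2i and 37.7 to 45.5 in LN511 2i, with 6 of 11 at 1 FPKM or more in both libraries in LN511 Std and 5 of 11 in gelatin Std. Most of it was the keratins Krt8 (87.34 and 93.4 FPKM in LN511 Std, 4.77 and 5.19 in gelatin Std) and Krt18 (75.49 and 76.71 against 10.23 and 10.71), and lower markers differed in the same direction: Krt7 had 10.23 and 7.65 against 2.25 and 2.66 FPKM, Hand1 3.12 and 2.35 against 0.49 and 0, and Gata3 2.33 and 1.77 against 0.41 and 0.13. Cdx2 and Eomes stayed under 1 FPKM in both Std groups, Ascl2 was lower on LN511 (4.43 and 0.72 against 6.91 and 8.12), and Tpbpa and Elf5 were at 0 in both Std groups. Their part in the differences of Ddit4 and Bnip3 by coating was not tested.

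In 2i no member passed for the coating (limma, 0 of 10 called). In that comparison 0.0195% of all genes were called, 2 genes, or 0 to 12 when 1 library was left out. At an unadjusted p under 0.05, 5 members were lower on LN511 (Ddit4, Bnip3, Egln3, Ndrg1 and Bhlhe40) and 0 were higher, with 11.9% of all genes under it in either direction. In 7 of the 10 members both LN511 libraries were below both gelatin libraries, and 20.7% of all genes did so. In 2 members, Vegfa and Fam162a, both LN511 libraries were above both gelatin libraries, as in 22.2% of all genes. Ddit4 was 1.99-fold lower (log2 -0.96, SE 0.11, limma adjusted p = 0.0542), Bnip3 1.72-fold lower (log2 -0.74, SE 0.12, limma adjusted p = 0.106) and Egln3 2.54-fold lower (log2 -1.08, SE 0.19, limma adjusted p = 0.126). With a pseudocount of 5, both Ddit4 and Bhlhe40 passed (limma adjusted p = 0.0477 for each). The trophoblast sums of the 2i groups, given above, were lower on LN511 than on gelatin, the reverse of Std, but through other markers. Krt8 was again higher on LN511 (12.48 and 13.59 FPKM against 9.51 and 11.87), as was Krt18 (5.76 and 10.55 against 4.52 and 3.66). Lower on LN511 were Tfap2c (11.54 and 10.89 FPKM against 18.01 and 20.46) and Eomes (1.66 and 2.18 against 5.8 and 4.87). The part of these markers in the differences by coating in 2i was not tested.

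**Figure D3:**
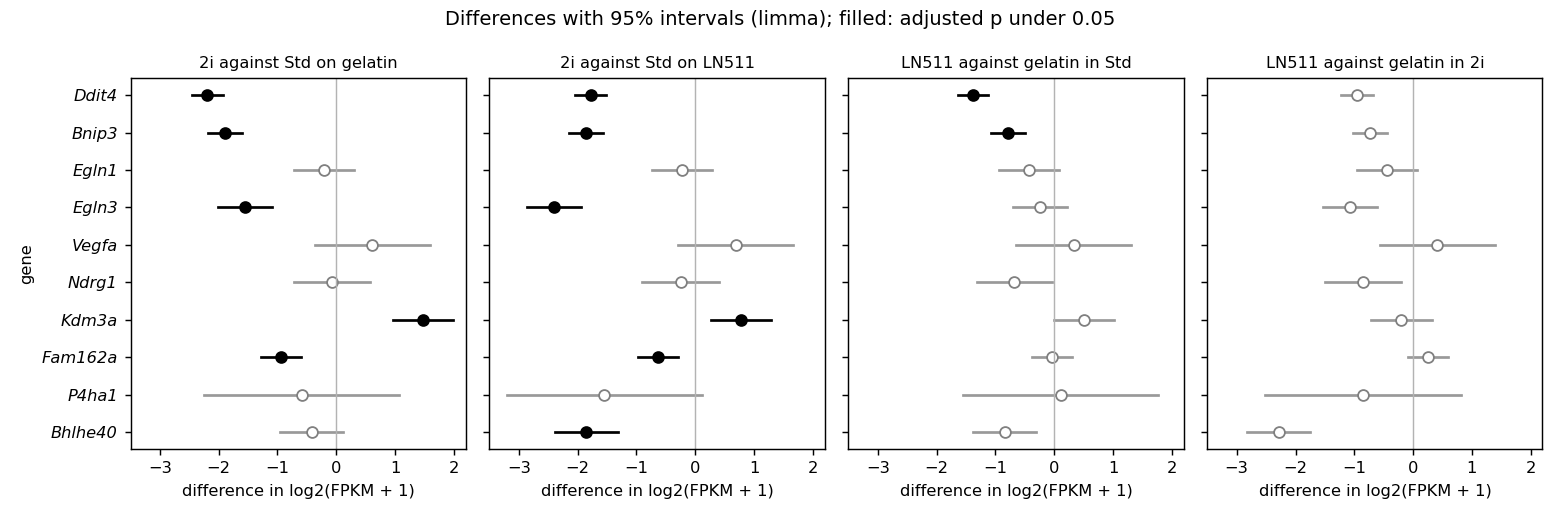
Differences of the 10 members on the log2(FPKM + 1) scale with 95% intervals, 1 panel for each of the 4 comparisons, with filled points for those with an adjusted p under 0.05. By medium Ddit4, Bnip3, Egln3 and Fam162a lie below 0 and Kdm3a above 0 on both coatings, and by coating in 2i no point is filled.

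No member passed the test of whether the effect of the medium differed between the coatings (limma, 0 of 10 called). Of all genes 0.185% were called in it, 19 genes, or 0 to 11 when 1 library was left out. At an unadjusted p under 0.05, 3 members stood out, Bhlhe40 and Egln3 with a larger fall in 2i on LN511 and Ddit4 with a smaller one (0.42, 95% interval 0.05 to 0.79, limma adjusted p = 0.36), and 12.2% of all genes were under it. For Kdm3a the difference was -0.70 (95% interval -1.42 to 0.03, limma adjusted p = 0.428).

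Over the 8 libraries the members fell into sets by profile, given as a description because the libraries share their groups. Pearson's r of log2(FPKM + 1) was 0.98 between Ddit4 and Bnip3, 0.97 between Bnip3 and Egln3 and 0.94 between Ddit4 and Egln3. Kdm3a ran against them, with r of -0.94 to Fam162a and -0.9 to Bnip3. Ndrg1 was nearest to Bhlhe40 (0.76), which like Ndrg1 and Egln1 had the highest means in both gelatin groups, and close to 0 with Fam162a (0.07). Among 6181 genes whose mean reached 5 FPKM, those most like the mean profile of the members were Rabep1 (r 0.978), Phf10 (0.976), Lbr (0.974), Snhg12 (0.971) and Lrpprc (0.969). Those most like Ddit4 alone were Tdgf1 (0.994), Fzd7 (0.987) and Ubr7 (0.987). Tdgf1, a coreceptor of Nodal, had means of 860.69, 622.73, 476.5 and 352.39 FPKM in gelatin Std, LN511 Std, gelatin 2i and LN511 2i, the same order as Ddit4, and it is also 1 of the embryonic stem cell markers.

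The HIF machinery was counted against the shares of all genes given above (8.2% higher and 7.2% lower in 2i on gelatin, 8.58% and 9.95% on LN511), as are the lists that follow. Of 16 machinery genes 15 were tested; 2 rose and none fell in 2i on gelatin (Vhl and Cited2), and 1 rose and none fell on LN511 (Elob). Hif1a was at 26.45 ± 9.23 FPKM (SD, n = 2) in gelatin Std, 24.1 ± 2.37 in gelatin 2i, 28.92 ± 2.06 in LN511 Std and 23.71 ± 2.61 in LN511 2i, and it passed by medium on neither coating (log2 -0.09 and -0.28, limma adjusted p = 0.843 and 0.464). Epas1 (log2 -0.53 and -0.21, limma adjusted p = 0.122 and 0.516) and Arnt (0.16 and -0.04, limma adjusted p = 0.828 and 0.958) did not pass either. HIF alpha subunits are controlled mainly as proteins, which these data do not measure. On gelatin Vhl went from 5.53 ± 0.81 FPKM in Std to 13.14 ± 1.62 in 2i, 2.38-fold higher (limma adjusted p = 0.0277), a call lost without any 1 of the 4 gelatin libraries (adjusted p from 0.0718 to 0.127). On LN511 it was 1.61-fold higher and did not pass (limma adjusted p = 0.119). The calls of Cited2 and Elob were likewise lost when single libraries were left out, Cited2 without any 1 but gelatin 2i replicate 2 and Elob without gelatin Std replicate 1 or 2, LN511 Std replicate 1 or 2 or LN511 2i replicate 2.

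Other HIF targets in glycolysis mostly fell where they passed. Of 20 genes 19 were tested; 8 fell and 1 rose in 2i on gelatin, and 9 fell and 2 rose on LN511, with median differences of -0.20 and -0.23. Pdk1, a pyruvate dehydrogenase kinase, went from 52.18 FPKM in Std to 10.76 in 2i on gelatin, 4.85-fold lower (limma adjusted p = 0.000711). On LN511 it went from 45.35 to 3.41 FPKM, 13.3-fold lower (limma adjusted p = 0.000136). The lactate transporter Slc16a3 was 4.09-fold lower on gelatin and 7.32-fold lower on LN511 (limma adjusted p = 0.00109 and 0.000269). The glucose transporter Slc2a1 was 2.01-fold and 3.06-fold lower (limma adjusted p = 0.00132 and 0.000191), Pgk1, an enzyme of glycolysis, 1.99-fold and 1.82-fold lower (0.000271 and 0.000421), and the phosphofructokinase Pfkl 2.24-fold and 1.95-fold lower (0.000711 and 0.00114). Slc2a1 was called higher on LN511 than on gelatin in Std (194.69 and 288.35 FPKM, limma adjusted p = 0.0365), against the direction of Ddit4 and Bnip3. Ldha, which makes lactate, was listed at 0 in every library and was not tested.

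Outside glycolysis the other targets were mixed. Of 36 genes 26 were tested; 5 fell and 2 rose on gelatin, 10 fell and 2 rose on LN511, with median differences of 0.02 and -0.33. Ak4, a mitochondrial adenylate kinase, went up like Kdm3a, 5.27-fold on gelatin (13.53 to 71.34 FPKM, limma adjusted p = 0.000179) and 6.07-fold on LN511 (17.89 to 108.58 FPKM, limma adjusted p = 0.000136). The cytokine Mif fell 1.75-fold on gelatin and 1.69-fold on LN511 (limma adjusted p = 0.0047 and 0.00489), and Plod2, a lysyl hydroxylase of collagen, 2.87-fold and 2.01-fold (0.00477 and 0.0185). The second Plod2 call was lost without LN511 Std replicate 1 (adjusted p = 0.0618), LN511 Std replicate 2 (0.0956) or LN511 2i replicate 2 (0.0701).

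**Figure D4:**
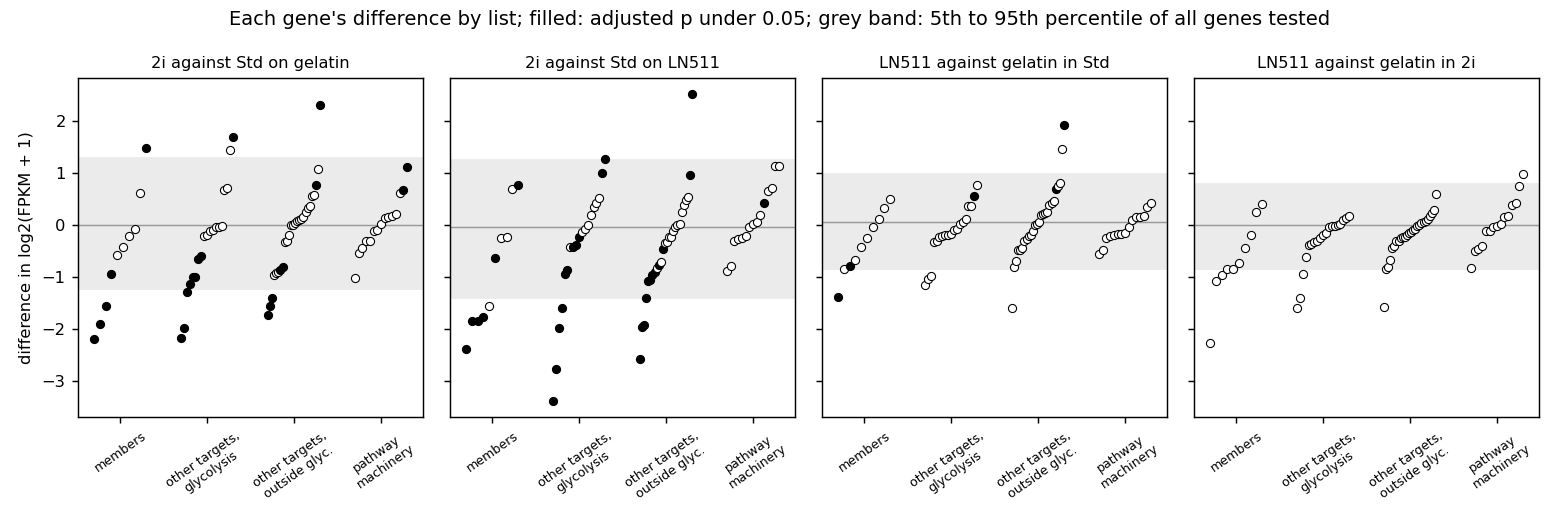
Differences on the log2(FPKM + 1) scale for each tested gene of 4 lists (the members, other targets in glycolysis, other targets outside it and the HIF machinery), 1 panel for each of the 4 comparisons; points are genes ordered by their value and filled where the adjusted p was under 0.05, the line is the median and the grey band the 5th to 95th percentile of all genes tested. By medium 5 members are filled on gelatin and 6 on LN511, and by coating in 2i no gene of the 4 lists is.

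Partners of single members were counted in the same way, and where only 0 to 2 genes of a list were called, nothing is read from the count. Of 10 tested paralogs of 15, 1 rose and none fell on gelatin (Kdm3b), and 1 rose and 1 fell on LN511 (Kdm3b and P4ha2). Bnip3l, the paralog of Bnip3 with the same role in mitophagy, differed by -0.00 and 0.02 by medium (SE 0.17, limma adjusted p = 0.998 and 0.947), with 28.71 ± 2.59 FPKM in Std and 28.62 ± 0.98 in 2i on gelatin. Of 10 tested partners in mitophagy and autophagy of 13, 2 rose and none fell on gelatin (Map1lc3b and Gabarap) and 2 rose and 1 fell on LN511 (Map1lc3b and Map1lc3a, and Gabarapl1), while Bnip3 fell on both. Of 8 tested regulators of mTORC1 of 13, the complex that Ddit4 inhibits, none was called on gelatin and 1 rose on LN511 (Sesn1). Of 7 tested genes of collagen hydroxylation of 11, 3 rose and 1 fell on gelatin (Plod1, P4hb and P3h1, and Plod2), and none rose and 2 fell on LN511 (Plod2 and P4ha2). For ATF4, a factor of the stress response that can also induce Ddit4, 10 of 14 listed genes were tested, among them Atf4 itself. On gelatin 1 rose (Asns) and 5 fell (Phgdh, Chac1, Cebpb, Slc3a2 and Atf4). On LN511 2 rose (Asns and Nupr1) and none fell. The calls of P4ha2, Map1lc3b, Map1lc3a, Gabarap, Gabarapl1, Sesn1, Plod1 and P4hb named here were each lost when 1 or another library of their own comparison was left out. Among the ATF4 targets Asns, which makes asparagine, went up 3.7-fold and 4.39-fold (limma adjusted p = 8.91e-05 and 5.32e-05), against the direction of Ddit4. Phgdh and Chac1 went in the direction of Ddit4 on gelatin (limma adjusted p = 0.00101 and 0.0118). On LN511 they were not called (0.459 and 0.126). How the calls of the 5 genes that fell depend on single libraries is not given here.

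By coating in Std, the called genes of these lists included Slc2a1, Jmjd6, Nrp2 and Col4a1, all higher on LN511, and Nupr1, lower. Each of these calls was lost without any 1 of the 4 Std libraries. No gene of these lists was called by coating in 2i or for the difference of the effects.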

How the data were processed

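RNA-seq of 8 libraries in 4 groups was used. The authors deposited FPKM values per gene and per transcript, 1 column for each library (0 sample columns were left out). The submitters' processing notes name mm10, Cufflinks 2.1.1 and TopHat2 2.1.1; what each was used for, the annotation, the strand and the scaling of libraries are, in the sources used here, not given. Of 54532 transcript rows, 21844 assembled ones were left out, and 31786 of 32688 RefSeq rows matched a symbol (902 did not). Their FPKM were summed for each of 22963 genes. The deposited gene table was not used, since 47.3% of 52481 values with a sum of 1 FPKM or more were at 0 there.

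The filter asked for 1 FPKM or more in 2 or more libraries (11244 genes). Genes with a replicate at 0 beside 5 FPKM or more, or a group at 0 beside a group mean of 5 FPKM or more, were set aside (966), which left 10278. A gene that passed only through the group where it is high had to differ. Tests used limma 3.58.1 (R 4.3.3; eBayes with trend) on log2(FPKM + 1), all 8 libraries, 4 residual degrees of freedom, adjusted within each of 5 contrasts, and it was tested on simulated data. The members, the gene lists (HIF machinery, other HIF targets in and outside glycolysis, paralogs, VEGF receptors, collagen hydroxylation, mitophagy, mTORC1 regulators, ATF4 targets, cell type markers) and the tests were chosen with earlier results of these data known. Beyond the members the text names Hif1a, Epas1, Arnt and Vhl, and paralogs. It names up to 3 called genes of a list by adjusted p in each comparison. It also names the 5 genes most like the members and the 3 most like Ddit4. P3h1, Cebpb, Slc3a2, Atf4, genes listed at 0 and the untested VEGF receptors were named after their values were seen. The FPKM carry no counting interval. Alternatives were the pseudocount, filters, quantile normalization, the gene table, the trend, the libraries fitted, a replicate block, the highest transcript alone and leaving out each library. Same-numbered libraries did not deviate together (correlations of -0.02 to 0.019), so the numbers were not taken as pairs. The 7 neuroectoderm markers summed to 20.2 to 25.0 FPKM in gelatin Std, 23.3 to 27.0 in gelatin 2i, 34.3 to 44.0 in LN511 Std and 25.1 to 27.7 in LN511 2i. The result of 1 gene that the rule names is not reported here.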

Additional observations from a re-analysis of the deposited data

How the results depend on the processing

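Calls by medium for Ddit4, Bnip3 and Egln3 on both coatings, for Fam162a and Kdm3a on gelatin and for Bhlhe40 on LN511 were kept in each run that used the transcript sums. With the deposited gene table, where 6 members passed the filter and zeros are unreliable, 2 members were called by medium on gelatin. Of these 1 was lower (Ddit4) and 1 higher (Egln3, log2 2.88, limma adjusted p = 0.0187), against its fall in the sums. On LN511 2 were called lower. By coating in Std 1 was lower (Ddit4) and 1 higher (Egln3, log2 4.20, limma adjusted p = 0.00401), and 1 was called for the interaction. Leaving out single libraries gave 5 to 5 members called by medium on gelatin, 4 to 6 on LN511, 0 to 2 by coating in Std, 0 to 0 by coating in 2i and 0 to 0 for the interaction. By coating in Std, 1 member was called without the trend and 0 with only the libraries of the comparison. By coating in 2i, 2 were called with a pseudocount of 5, 1 with no filter, 2 with doubtful zeros kept and 1 without the trend. With the replicate block 1 member was called by coating in Std: Bnip3 was lost (adjusted p = 0.0546), as was Kdm3a by medium on LN511 (0.0759), and the block changed no other call of a member. Over all genes, 1583 were called by medium on gelatin (273 with the gene table, 998 with only the libraries of the comparison), 1905 on LN511 (336 and 962), 216 by coating in Std (6 with only those libraries, 80 with the block), 2 by coating in 2i (0 to 187 over the settings) and 19 for the interaction (1 to 307). The causes of these changes were not tested.

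Directions reversed in the gene table by medium on gelatin (log2) for Bnip3 (1.27), Egln3 (2.88), Ak4 (-1.93), Epas1 (1.46), Gabarap (-1.98), Map1lc3b (-2.32), Mif (4.38), Pdk1 (3.55), Pfkl (2.80), Pgk1 (4.34), Plod2 (0.92) and Slc16a3 (4.37). On LN511 they did so for Bnip3 (0.92), Ndrg1 (0.84), Ak4 (-4.24), Epas1 (1.81), Gabarapl1 (0.82), Map1lc3b (-2.39), Nrp2 (1.25; interaction 1.25), Nupr1 (-1.15), Pfkl (5.60) and Pgk1 (3.80). By coating in Std they did so for Egln1 (1.55), Egln3 (4.20), Bhlhe40 (1.29) and Col4a1 (-0.85). With the highest transcript alone, Vegfa by coating in 2i was -0.13 and Arnt by medium on LN511 0.28. The other reversals were in differences that were not called, when 1 library was left out. Their ranges over the libraries left out were, by coating in Std, -0.26 to 0.92 for Vegfa, -0.18 to 0.10 for Fam162a and -0.46 to 0.68 for P4ha1; by coating in 2i, -1.82 to 0.11 for P4ha1; by medium on gelatin, -0.16 to 0.02 for Ndrg1, -0.42 to 0.73 for Arnt and -0.44 to 0.26 for Hif1a; and by medium on LN511, -0.58 to 0.08 for Ndrg1 and -0.35 to 0.26 for Arnt. Depth limits the lowest members most, P4ha1 and, in LN511 2i, Bhlhe40 and Egln3.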
